A study of Homo sapiens with 8 samples.

Results

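The mRNAs of 60 ribosome biogenesis factors, the nucleolar and cytoplasmic proteins that make and assemble ribosomal subunits, were followed in RNA pulled down with an antibody to RPS6, which sits in the small subunit of the ribosome, and in the matching input RNA. The members were a fixed list of names and were found by the gene names of the deposited tables. All 60 were found among the 57756 genes listed, and all 60 were among the 19921 genes tested. RNA immunoprecipitation (RIP) had been carried out in 4 cancer cell lines without any treatment in the labels: Hep3B from hepatocellular carcinoma (HCC), HCT116 from colorectal cancer, DU145 from prostate cancer, and SW1990 from pancreatic cancer. Each line gave 1 RIP library and 1 input library, so the 8 libraries formed 4 pairs and no pair had a replicate within its line. No library from a control antibody was analysed here, so the ratio of RIP to input cannot tell RNA held through RPS6 apart from RNA that stays on the beads without it. The title of the liver cancer pair names 3B cells, as the methods do, whereas its cell line field names Huh7, and the pair is called Hep3B here.

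The libraries held between 35796163 and 54209632 fragments for input RNA and between 34630364 and 42610074 after RIP. The lowest count of a member was 243 fragments in an input and 25 in a RIP library. Levels are given in FPKM, fragments per kilobase of transcript and per unit of library depth, always in the order Hep3B, HCT116, DU145 and SW1990. Hep3B and HCT116 came in 1 table and DU145 and SW1990 in another, which the authors had scaled separately, so a level set across the tables carries that scaling as well. Markers of the tissues of origin were not all present. The 6 liver markers were high in the Hep3B pair, with albumin at 5030.1 FPKM in the input. In the HCT116 input, CDX1 was at 0 and CDX2 at 6.25 FPKM, and in the DU145 input KLK3 and KLK2 were at 0. CDX2 was highest in the SW1990 input, at 86.6 FPKM. Of the pancreatic duct markers, SOX9 and PDX1 were highest in the SW1990 input, at 60.6 and 12.7 FPKM, and KRT19 stood there at 229 FPKM. KRT7 and MUC1 were at 3.17 and 1.16 FPKM in SW1990 but at 254 and 76.6 FPKM in DU145. Of 4 nuclear-retained RNAs tested, 3 were lower in the RIP libraries, MALAT1, NEAT1 and MIAT (MALAT1 log2 fold change -3.04 ± 0.37, edgeR adjusted p = 7.50e-05). KCNQ1OT1, at most 0.729 FPKM in any library, did not pass (log2 fold change -0.09 ± 0.28, edgeR adjusted p = 0.815). These are bulk RNA samples, in which fewer cells with an mRNA and less of it per cell cannot be told apart.

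Ribosome assembly begins in the nucleolus, where RNA polymerase I (Pol I) transcribes a long precursor of the ribosomal RNAs (rRNAs). The small nucleolar ribonucleoproteins (snoRNPs) and stand-alone enzymes modify this precursor, the small subunit processome folds and cleaves it, and further sets of factors carry the small and the large subunit through the nucleoplasm into the cytoplasm. Growth signals through MYC and mTOR are known to raise the output of this pathway, and tumor cells often hold high levels of its factors. The RIP to input ratio sets the share of a factor's mRNA in the RIP library against its share in the input. It measures neither the amount of mRNA recovered nor the amount of the protein.

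Across the 4 pairs, the 60 mRNAs split in both directions. In edgeR's quasi-likelihood test with the cell line as a block, 18 members (30.0%) were higher in RIP than in input at an adjusted p below 0.05, against 26.5% of all genes tested, and 25 (41.7%) were lower, against 24.9% of all genes. The other 17 did not pass. At a minimum mean of 50 counts, 18 members were higher and 27 lower. Of the 15438 genes then tested, 4983 were higher and 4690 lower. The members' share of higher calls then lay below that of all genes, and their share of lower calls stayed above it. The median log2 fold change of the members was -0.23, and that of all genes tested was -0.05. The fold changes of the members ran from -2.57 for UTP3 to 3.11 for TBL3. Without the SW1990 pair UTP3 was at -1.96, above GAR1 at -2.37 and MPHOSPH10 at -2.20. The members with the 5 highest fold changes were TBL3, MDN1, RRP12, BOP1 and POLR1A, and those with the 5 lowest were UTP3, MPHOSPH10, GAR1, SBDS and NPM1. Of the 43 calls 41.9% were higher in RIP. With limma on log2(FPKM + 1) in place of the counts, 21 members were higher (35.0%, against 25.2% of all genes) and 19 lower (31.7%, against 18.4%), so that 52.5% of the calls were higher. On library totals without TMM, 17 were higher (28.3%, against 19.5%) and 30 lower (50%, against 32%), or 36.2% of the calls higher, where over all genes the share of calls higher went from 51.6% to 37.9% and the median from -0.05 to -0.40.

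The ratios per cell line showed the same spread. The ratio was log2((RIP FPKM + 1)/(input FPKM + 1)), which understates the change of weakly expressed genes. The members had medians of 0.08 (Hep3B), 0.25 (HCT116), -0.03 (DU145) and -0.39 (SW1990), beside 0.08, 0.01, 0.04 and 0.00 over all genes tested. The mean of the 4 medians was -0.02 ± 0.27 (SD, n = 4). A total of 22 members were higher in RIP in 4 of 4 lines (36.7%, against 30.7% of all genes tested), and 20 were lower in 4 of 4 (33.3%, against 23.6%). On TMM-scaled counts 19 were higher in 4 of 4 (31.7%, against 29.2%) and 27 lower (45%, against 30%), and the medians of the members were -0.25, 0.08, -0.25 and -0.51. By FPKM, HCT116 gave the highest ratio for 37 members, and SW1990 gave the lowest for 30. The matching shares over all genes are not given here, so these counts may hold for a whole library. With 1 pair per line, these differences between lines have no test.

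**Figure D1:**
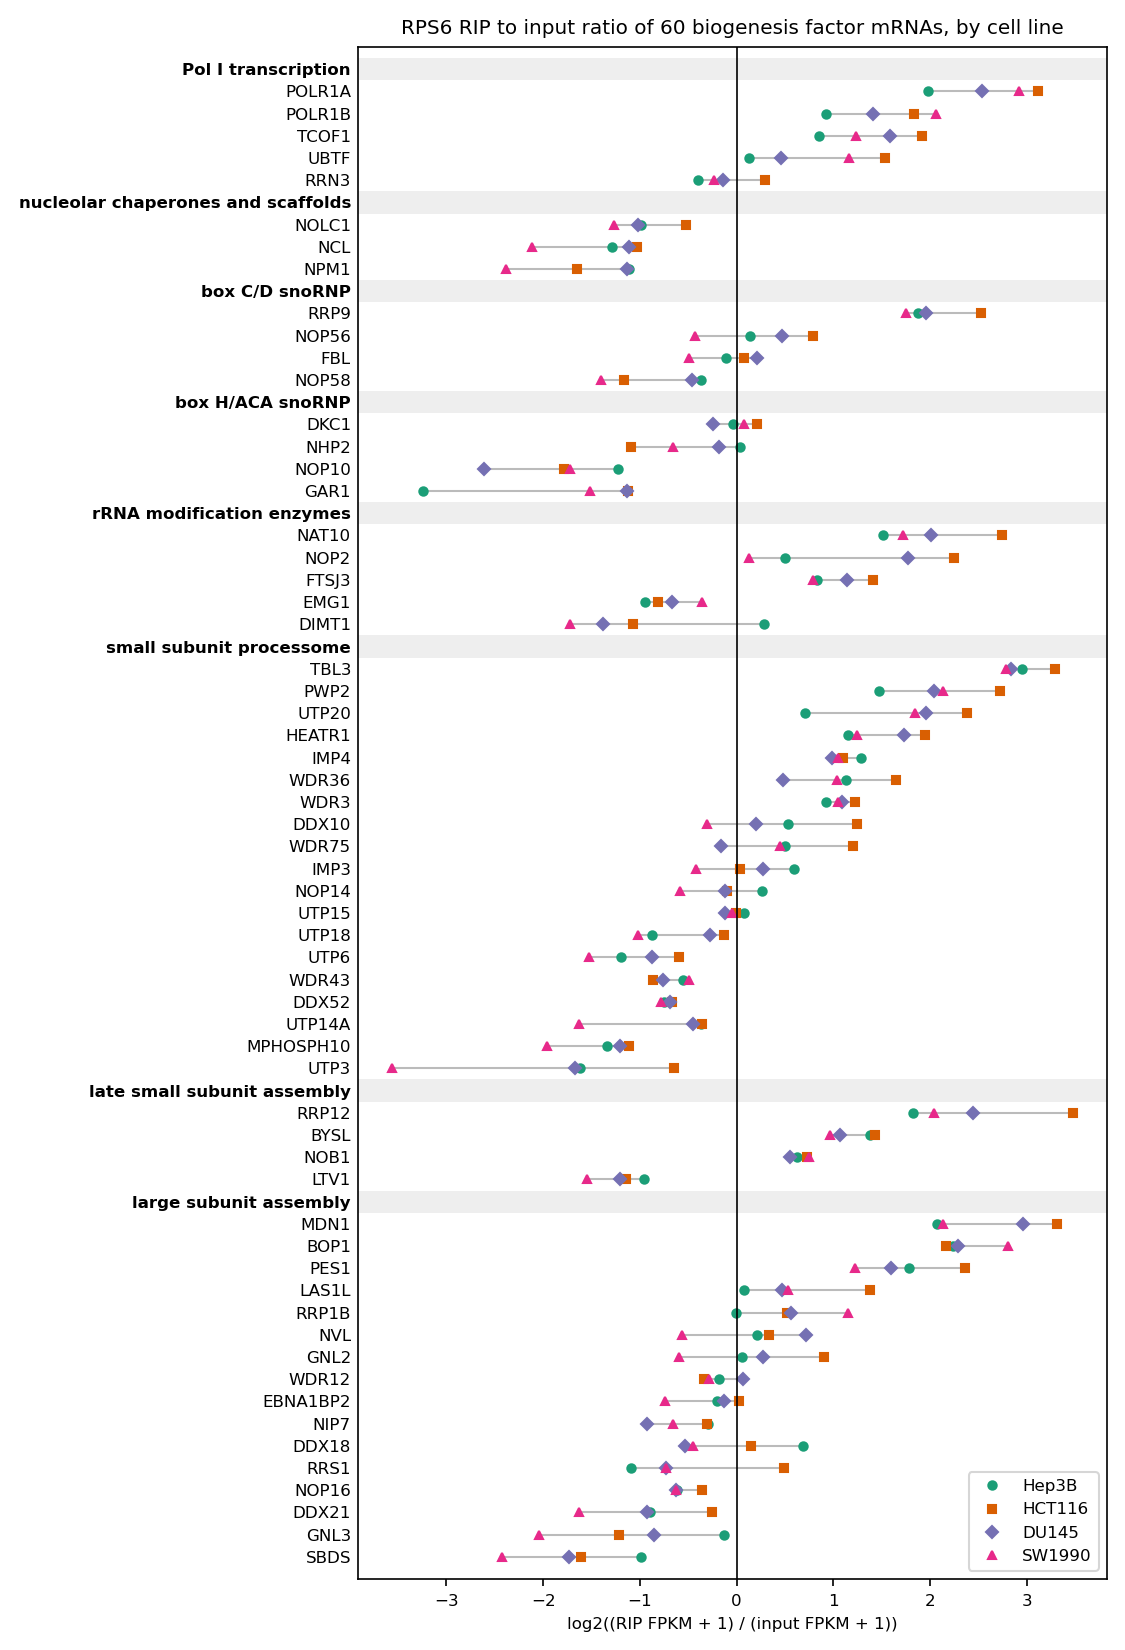
The log2 ratio of RIP to input, from (FPKM + 1) values, is plotted for each of the 60 mRNAs (rows, grouped by role and ordered by the edgeR fold change) in 4 cell lines (symbols), with a grey bar from the lowest to the highest line. The 3 nucleolar chaperones lie left of 0 in every line, POLR1A, POLR1B, TCOF1 and UBTF lie right of 0 in every line, and the processome spans both sides, from -3.56 for UTP3 in SW1990 to 3.30 for TBL3 in HCT116.

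The promoters of the members were read for 2 short elements that are known from genes of the translation apparatus. The RefSeq windows, from 250 bases before to 50 bases after a transcription start on GRCh38.p14, were at hand for 50 of the 60 members. The first element is CACGTG, the E-box that MYC with its partner MAX and other basic helix-loop-helix factors can bind. It reads the same on both strands. It occurred in a window of 21 of the 50 members (42.0%), against 1393 of the 11404 tested genes with a window (12.2%). Of the windows themselves, 22 of 59 of the members held it (37.3%) and 8.99% of those of the tested genes. The windows of the members had a median GC content of 62.7% and those of the tested genes one of 64.3%. Of the 26 sites in the members' windows, 13 began within 20 bases of the start, and only these are shown here. They were picked by that position, and the share of sites so placed over the tested genes is not given here. Each line gives 30 bases on the strand of the gene, with the E-box in capitals. The first 6 belong to members higher in RIP, the next 4 to members lower in RIP, and the last 3 to members without a call.
PWP2 (chr21:44107388-44107417, plus strand): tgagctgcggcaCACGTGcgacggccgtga
RRP9 (chr3:51941892-51941921, minus strand): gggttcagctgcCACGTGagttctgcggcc
UTP20 (chr12:101280083-101280112, plus strand): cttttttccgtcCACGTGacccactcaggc
NAT10 (chr11:34105602-34105631, plus strand): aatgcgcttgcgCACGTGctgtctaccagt
PES1 (chr22:30591880-30591909, minus strand): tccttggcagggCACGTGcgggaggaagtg
IMP4 (chr2:130342900-130342929, plus strand): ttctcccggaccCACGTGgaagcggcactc
WDR43 (chr2:28894658-28894687, plus strand): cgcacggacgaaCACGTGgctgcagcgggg
UTP18 (chr17:51260538-51260567, plus strand): gcagcgaggttcCACGTGagcgcctgcgtt
NOP10 (chr15:34343130-34343159, minus strand): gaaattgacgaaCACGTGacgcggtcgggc
GNL3 (chr3:52686026-52686055, plus strand): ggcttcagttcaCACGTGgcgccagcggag
FBL (chr19:39846356-39846385, minus strand): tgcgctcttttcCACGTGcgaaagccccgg
GNL2 (chr1:37595917-37595946, minus strand): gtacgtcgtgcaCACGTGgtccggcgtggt
NOP14 (chr4:2963374-2963403, minus strand): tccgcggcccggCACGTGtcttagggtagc

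The E-box was found on both sides of the split. It was present in 9 of the 15 members higher in RIP that had a window (60%), in 9 of the 19 lower (47.4%) and in 3 of the 16 without a call (18.8%). The corresponding shares over all genes were 14.1% of those higher and 11.9% of those lower. A match to 6 letters is a description and does not show that a factor sits there. The mRNA of MYC itself was present in each input, at 41.7, 102, 32.6 and 84.2 FPKM.

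The second element is the start of a terminal oligopyrimidine (TOP) mRNA, a C followed by a run of pyrimidines, which places the translation of ribosomal protein and translation factor mRNAs under mTOR. A RefSeq start with a C and at least 4 further C or T was found for 6 of the 50 members (12%) and for 802 of the 11404 tested genes (7.03%). The first 20 transcribed bases of the 6 are given, with the pyrimidine run in capitals. NPM1, DDX21, EBNA1BP2 and UTP14A were lower in RIP, NOB1 was higher, and FBL was not called. In FBL the end of the run overlaps the E-box printed above.
NPM1 (chr5:171387849-171387868, plus strand): CTTTCCCTggtgtgattccg
DDX21 (chr10:68956170-68956189, plus strand): CTCTTCCTCTCCacgcggtt
EBNA1BP2 (chr1:43172551-43172570, minus strand): CCTCCCCCggggtcctcctc
UTP14A (chrX:129906164-129906183, plus strand): CCTTCggcttccgttcttgg
NOB1 (chr16:69754907-69754926, minus strand): CTCTCacgcagccaacatgg
FBL (chr19:39846360-39846379, minus strand): CTTTTCCacgtgcgaaagcc

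The Pol I factors among the members were mostly higher in RIP. Of these 5, 4 passed as higher and none as lower, with a median log2 fold change of 1.24. Over all genes tested 26.5% were higher. Other Pol I factors, from the further biogenesis factors counted below, were split. POLR1C, POLR1E and TAF1C were higher, with log2 fold changes of 1.27, 0.80 and 1.91. POLR1D, TWISTNB, ZNRD1 and TAF1D were lower, at -1.18, -1.86, -1.01 and -1.88, and CD3EAP, TAF1A and TAF1B did not pass. POLR1A (ENSG00000068654, chr2:86247339-86333278, hg19), which encodes the largest subunit of Pol I, was at 7.13, 5.41, 4.57 and 5.30 FPKM in the input and 31.2, 54.7, 31.2 and 46.8 FPKM after RIP. Every RIP value lay above every input value (log2 fold change 2.17 ± 0.27, adjusted p = 8.24e-05). UBTF, the factor that binds the rRNA gene promoter and keeps its chromatin open, was at 22.1, 24.1, 46.6 and 19.7 FPKM in the input and 24.2, 71.6, 64.4 and 45.5 FPKM after RIP. Its values overlapped between the groups, with the DU145 input above the Hep3B and SW1990 RIP values, but within each line the RIP value was the higher (log2 fold change 0.91 ± 0.20, adjusted p = 0.00322). POLR1B, the second-largest subunit, and TCOF1, a nucleolar partner of Pol I, were higher as well, with log2 fold changes of 1.30 and 1.24. RRN3, which recruits Pol I to the promoter, did not pass (log2 fold change -0.49 ± 0.20, adjusted p = 0.0617). It passed as lower in 4 of the alternatives, namely without the HCT116 pair (adjusted p = 0.0330), with DESeq2 (adjusted p = 0.0423), at a minimum of 50 counts (adjusted p = 0.0349) and on library totals (adjusted p = 0.00417). Reads of RRN3 may be shared with its pseudogene copies.

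The nucleolar chaperones and scaffolds went the other way, and all 3 were lower in RIP, where 24.9% of all genes tested were. NPM1 (ENSG00000181163, chr5:170814120-170838141, hg19), nucleophosmin, an abundant histone and ribosome chaperone, was at 851, 2159, 892 and 3398 FPKM in the input and 392, 686, 405 and 652 FPKM after RIP. The lowest input exceeded the highest RIP library, and the gap was widest in SW1990 (log2 fold change -1.996 ± 0.28, adjusted p = 1.93e-04). NPM1 alone made up between 31.2% and 53.3% of the summed FPKM of the 60 members in the inputs, and between 15.3% and 19.2% after RIP. It has many processed pseudogenes, and the deposited counts may have been split with them. NCL, nucleolin, which binds nascent pre-rRNA, was at 157, 146, 196 and 216 FPKM in the input and 63.9, 70.8, 90.5 and 48.8 FPKM after RIP. Here too the groups did not overlap (log2 fold change -1.94 ± 0.24, adjusted p = 9.90e-05). NOLC1, a chaperone of snoRNPs, had a log2 fold change of -1.29 ± 0.21 and was lower in 4 of 4 lines.

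The proteins of the box C/D snoRNPs, which guide the 2′-O-methylation of rRNA, did not share a direction. FBL (ENSG00000105202, chr19:40325098-40337054, hg19), fibrillarin, the methyltransferase itself, was at 156, 343, 139.9 and 333 FPKM in the input and 145, 361, 162 and 237 FPKM after RIP. Its RIP values lay within the range of its inputs apart from HCT116, and it did not pass (log2 fold change -0.08 ± 0.19, adjusted p = 0.751). NOP56, a scaffold of the particle, was at 223, 162, 141 and 455 FPKM in the input and 245, 279, 197 and 337 FPKM after RIP, again without a call (log2 fold change 0.16 ± 0.24, adjusted p = 0.595). NOP58, the paired scaffold, was lower, with ratios of -0.37, -1.16, -0.46 and -1.40 (log2 fold change -1.38 ± 0.22, adjusted p = 4.52e-04). RRP9, which joins the U3 snoRNP alone, was higher, with ratios of 1.88, 2.53, 1.96 and 1.75 (log2 fold change 2.06 ± 0.20, adjusted p = 2.15e-05). Whether these 4 fold changes differ from each other was not tested.

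Of the 4 proteins of the box H/ACA snoRNPs, which guide pseudouridylation, 2 were lower and none higher, with a median log2 fold change of -1.18. Over all genes tested 24.9% were lower and 26.5% higher. DKC1, dyskerin, the pseudouridine synthase, was at 34.8, 53.0, 65.8 and 67.7 FPKM in the input and 34.0, 61.6, 55.5 and 71.3 FPKM after RIP and did not pass (log2 fold change -0.36 ± 0.18, adjusted p = 0.125). NHP2 was at 46.2, 172, 90.8 and 260.5 FPKM in the input and 47.4, 80.0, 80.0 and 165 FPKM after RIP. It was close to the threshold (log2 fold change -0.55 ± 0.22, adjusted p = 0.0550) and passed as lower in 6 of the alternatives, among them DESeq2 (adjusted p = 0.0491), library totals (adjusted p = 0.00985) and the fit without the Hep3B pair (adjusted p = 0.0125). GAR1 was at 17.3, 20.3, 18.8 and 27.1 FPKM in the input and 0.931, 8.78, 8.03 and 8.79 FPKM after RIP. The RIP library of Hep3B was far below the other 3, which were alike (log2 fold change -2.24 ± 0.45, adjusted p = 0.00201). NOP10, the smallest of the 4, had ratios of -1.23, -1.79, -2.61 and -1.72 (log2 fold change -1.81 ± 0.25, adjusted p = 1.62e-04).

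Some members share their listed loci with snoRNA genes. Many snoRNAs are cut from the introns of host genes, but a shared locus does not by itself show the host. The loci of 8 members held listed snoRNA or scaRNA genes, namely NOP56, NOP58, DKC1, NCL, UTP20, WDR43, EMG1 and GNL3. The snoRNAs at these loci held at most 1 fragment over all inputs and at most 1 over all RIP libraries. The exception was SCARNA12 at the EMG1 locus, a small Cajal body RNA, with 773 input and 211 RIP fragments, beside 10028 and 4337 for EMG1. That locus is shared with 11 other listed genes, so EMG1 need not be the host of SCARNA12. EMG1 was lower in RIP (log2 fold change -0.67 ± 0.18, adjusted p = 0.00945), and the part of SCARNA12 in this was not tested.

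The enzymes that modify rRNA outside these snoRNPs were split, with 2 of 5 higher, 2 lower and 1 not called. Over all genes tested 26.5% were higher and 24.9% lower. NAT10, the rRNA and tRNA cytidine acetyltransferase, was higher in every line, with ratios of 1.51, 2.74, 2.02 and 1.72 (log2 fold change 1.97 ± 0.24, adjusted p = 7.30e-05). NOP2, a cytosine methyltransferase of the large-subunit rRNA, was at 22.0, 15.1, 15.6 and 32.6 FPKM in the input and 31.7, 75.5, 55.6 and 35.7 FPKM after RIP. Its rise was large in HCT116 and DU145 and small in Hep3B and SW1990 (log2 fold change 1.19 ± 0.29, adjusted p = 0.00603), and it had the widest range of the ratio among the members after UTP3. DIMT1, a dimethyltransferase of the small-subunit rRNA, had ratios of 0.28, -1.07, -1.38 and -1.73, positive in Hep3B alone, and in the counts, on which the fold change rests, it was lower in Hep3B as well, at -0.97 (log2 fold change -1.50 ± 0.22, adjusted p = 2.24e-04). FTSJ3 had ratios between 0.79 and 1.41 but did not pass on counts (log2 fold change 0.56 ± 0.25, adjusted p = 0.0848), and it passed as higher without the SW1990 pair (adjusted p = 0.0340).

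The small subunit processome, the large particle that forms on the nascent transcript, held the most members, and its 19 mRNAs reached both ends of the range. TBL3, PWP2, UTP20, HEATR1 and IMP4 were higher, 7 were lower and 7 were not called, with a median log2 fold change of 0.01. Of the 19, 26.3% were higher and 36.8% lower, against 26.5% and 24.9% of all genes tested. TBL3, a WD-repeat protein of the UTP-B complex, was at 4.16, 18.9, 10.5 and 20.4 FPKM in the input and 38.9, 194, 80.7 and 147 FPKM after RIP. Each RIP library exceeded each input, and the ratio was alike in the 4 lines, 2.97 ± 0.23 (SD, n = 4) on the log2 scale (log2 fold change 3.11 ± 0.19, adjusted p = 1.23e-05). PWP2 (ENSG00000241945, chr21:45527171-45551063, hg19), its partner in UTP-B, had ratios of 1.48, 2.73, 2.04 and 2.13 (log2 fold change 2.12 ± 0.22, adjusted p = 3.04e-05). UTP20, a giant scaffold protein, was at 6.69, 2.73, 10.5 and 7.26 FPKM in the input and 11.5, 18.5, 43.7 and 28.7 FPKM after RIP, with the smallest ratio in Hep3B (log2 fold change 1.65 ± 0.28, adjusted p = 7.11e-04).

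At the low end stood UTP3 (ENSG00000132467, chr4:71554196-71556267, hg19), a processome protein of the Sas10 family, at 23.8, 7.96, 8.92 and 27.5 FPKM in the input and 7.08, 4.73, 2.11 and 1.41 FPKM after RIP. The SW1990 RIP value was the lowest although the SW1990 input was the highest (log2 fold change -2.57 ± 0.46, adjusted p = 9.90e-04), so that UTP3 had the widest range of the ratio of all members, from -3.56 in SW1990 to -0.65 in HCT116. MPHOSPH10, a U3-associated protein that binds IMP3 and IMP4, was at 22.3, 4.13, 8.39 and 11.6 FPKM in the input and 8.19, 1.37, 3.08 and 2.24 FPKM after RIP. Its groups overlapped, since the Hep3B RIP value exceeded the HCT116 input, but within each line the RIP value was the lower (log2 fold change -2.39 ± 0.24, adjusted p = 2.55e-05). Its partners went different ways, as IMP4 was higher (log2 fold change 0.91 ± 0.18, adjusted p = 0.00150) and IMP3 did not pass (log2 fold change 0.01 ± 0.20, adjusted p = 0.963). The remaining lower members, WDR43, UTP6, UTP14A, UTP18 and DDX52, had log2 fold changes between -1.36 and -1.02. Under limma on log2(FPKM + 1), UTP14A and UTP18 no longer passed (adjusted p = 0.0778 and 0.0556). DDX52, an RNA helicase, was the steadiest by FPKM, with ratios of -0.75, -0.67, -0.69 and -0.78. On TMM-scaled counts DDX52 was at -1.20, -1.18, -1.12 and -1.74. WDR43 was the more even there, at -1.15, -1.09, -1.31 and -1.21. Of the 7 without a call, WDR3 and WDR36 were higher in 4 of 4 lines by FPKM, with ratios of 0.92, 1.22, 1.09 and 1.05 for WDR3. Both passed under limma on FPKM (adjusted p = 0.00142 and 0.00432) but not on counts (adjusted p = 0.0940 and 0.0815). DDX10, WDR75, IMP3, NOP14 and UTP15 had log2 fold changes between -0.37 and 0.32.

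Of the 4 members that act in late small-subunit assembly, 3 were higher, where 26.5% of all genes tested were. Factors of this stage outside the members did not share that direction. PNO1, RIOK1 and RIOK2 were lower, with log2 fold changes of -2.25, -1.34 and -1.25, and TSR1 did not pass, at 0.02. RRP12, a nuclear export factor of pre-ribosomes, was at 3.15, 4.61, 8.30 and 6.15 FPKM in the input and 13.7, 61.6, 49.8 and 28.4 FPKM after RIP. Each RIP library lay above each input, and HCT116 stood highest (log2 fold change 2.74 ± 0.25, adjusted p = 1.65e-05). NOB1, the endonuclease that makes the last cut of the small-subunit rRNA, was at 14.9, 69.5, 45.7 and 45.1 FPKM in the input and 23.5, 116, 67.6 and 76.4 FPKM after RIP. The rise was small but alike in the lines, with ratios of 0.63, 0.73, 0.56 and 0.75 (log2 fold change 0.68 ± 0.17, adjusted p = 0.00662). On library totals without TMM NOB1 no longer passed (adjusted p = 0.148). BYSL, bystin, rose by 1.05 ± 0.18 on the log2 scale, and LTV1, a factor of the pre-small subunit in the cytoplasm, was lower (log2 fold change -1.82 ± 0.21, adjusted p = 5.13e-05).

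Among the 16 factors of the large subunit 3 were higher, 9 lower and 4 not called, with a median log2 fold change of -0.55. The shares were 18.75% higher and 56.25% lower, against 26.5% and 24.9% of all genes tested. MDN1, midasin, a giant AAA ATPase that strips assembly factors from the particle, was at 5.61, 4.63, 4.38 and 5.70 FPKM in the input and 26.9, 54.8, 40.8 and 28.4 FPKM after RIP. The groups were far apart in every line (log2 fold change 2.74 ± 0.25, adjusted p = 1.84e-05). BOP1, PES1 and WDR12 form the PeBoW complex. BOP1 was at 6.59, 41.9, 19.5 and 17.8 FPKM in the input and 34.9, 191, 98.8 and 130.2 FPKM after RIP, the Hep3B pair lying lowest on both sides (log2 fold change 2.59 ± 0.20, adjusted p = 1.27e-05). PES1 was at 16.2, 47.6, 21.1 and 38.6 FPKM in the input and 57.9, 248, 66.0 and 91.7 FPKM after RIP, without overlap (log2 fold change 1.62 ± 0.22, adjusted p = 1.53e-04). WDR12, by contrast, had ratios of -0.18, -0.33, 0.07 and -0.28 and passed as lower (log2 fold change -0.53 ± 0.17, adjusted p = 0.0258), a call that was lost without the HCT116 or the DU145 pair (adjusted p = 0.0673 and 0.0922). So 2 mRNAs of the complex were higher and that of WDR12 was not. SBDS, which helps release the factor eIF6 from the subunit in the cytoplasm, was at 49.3, 36.1, 58.5 and 81.0 FPKM in the input and 24.4, 11.1, 16.9 and 14.2 FPKM after RIP. The RIP values stayed below each input (log2 fold change -2.08 ± 0.24, adjusted p = 5.65e-05), and its reads may be shared with a pseudogene copy.

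The other lower members of the large subunit were GNL3 (nucleostemin), DDX21, NOP16, RRS1, DDX18, NIP7 and EBNA1BP2. GNL3 was at 37.4, 63.4, 34.9 and 74.4 FPKM in the input and 34.2, 26.8, 18.8 and 17.3 FPKM after RIP. By FPKM its ratio was -0.13 in Hep3B and -2.04 in SW1990, and by counts it was -0.89 in Hep3B (log2 fold change -1.70 ± 0.26, adjusted p = 3.23e-04). DDX21, an RNA helicase, had ratios of -0.89, -0.26, -0.93 and -1.63 (log2 fold change -1.44 ± 0.23, adjusted p = 4.55e-04). Several of these calls were lost when 1 pair was left out. RRS1 was lost without Hep3B, DU145 or SW1990 (adjusted p = 0.0806, 0.101 and 0.113). NIP7 was lost without DU145 or SW1990 (adjusted p = 0.112 and 0.0587), as were DDX18 (adjusted p = 0.0673 and 0.0715) and EBNA1BP2 (adjusted p = 0.0861 and 0.106). For DDX18 the FPKM ratios were 0.68, 0.15, -0.54 and -0.45, with a mean of -0.04, although the count fit gave -0.71. The 4 members without a call were LAS1L, RRP1B, NVL and GNL2, with log2 fold changes between -0.14 and 0.46, and LAS1L was higher in 4 of 4 lines by FPKM.

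Related lists were counted in the same way, beside 26.5% higher and 24.9% lower over all genes tested. Of a list of 76 further biogenesis factors, 26 were higher (34.2%) and 33 lower (43.4%), with a median log2 fold change of -0.43. Of 41 translation factor mRNAs, 13 were higher and 13 lower (31.7% each), with a median of 0.07. Of 76 ribosomal protein mRNAs, 57 were lower (75%) and 1 was higher (1.32%), with a median of -1.90. Among the members, NCL, LTV1, NOP10 and NPM1 lay closest to that median, at -1.94, -1.82, -1.81 and -1.996. Differences between the lists were not tested.

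**Figure D2:**
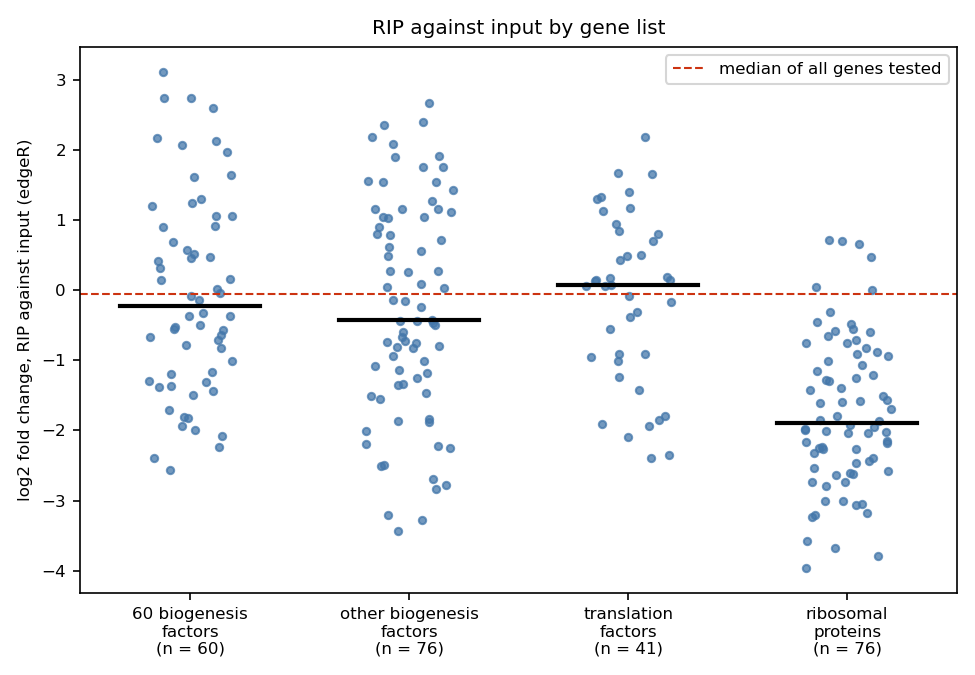
Each point is the log2 fold change of RIP against input of 1 mRNA (edgeR, 4 pairs, vertical axis) in 4 lists, spread sideways for visibility. Black bars give the median of a list (-0.23 for the 60 members, -0.43, 0.07 and -1.90 for the others), and the dashed line gives the median of all genes tested (-0.05).

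Members higher in RIP had the larger median length and a lower median input level than those lower in RIP. A transcript length can be read from the files as the ratio of a count to its FPKM, up to the depth of the table. Its median was 2851 bases for the 18 higher members, 1649 for the 25 lower and 2146 for the 17 not called. MDN1, at 15046 bases, and POLR1A, at 10729, were the longest members, and NOP10, at 403, the shortest. Over all genes the medians were 2274 bases for those higher and 1521 for those lower. Spearman's rho between the log2 fold change and this length was 0.43 over the 60 members and 0.27 over the 19921 genes, which are not independent and share the same libraries. The median input level was 15.3 FPKM for the higher members, 34.2 for the lower and 16.9 for the rest. Length and level moved with the call, and their part in it was not tested.

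**Figure D3:**
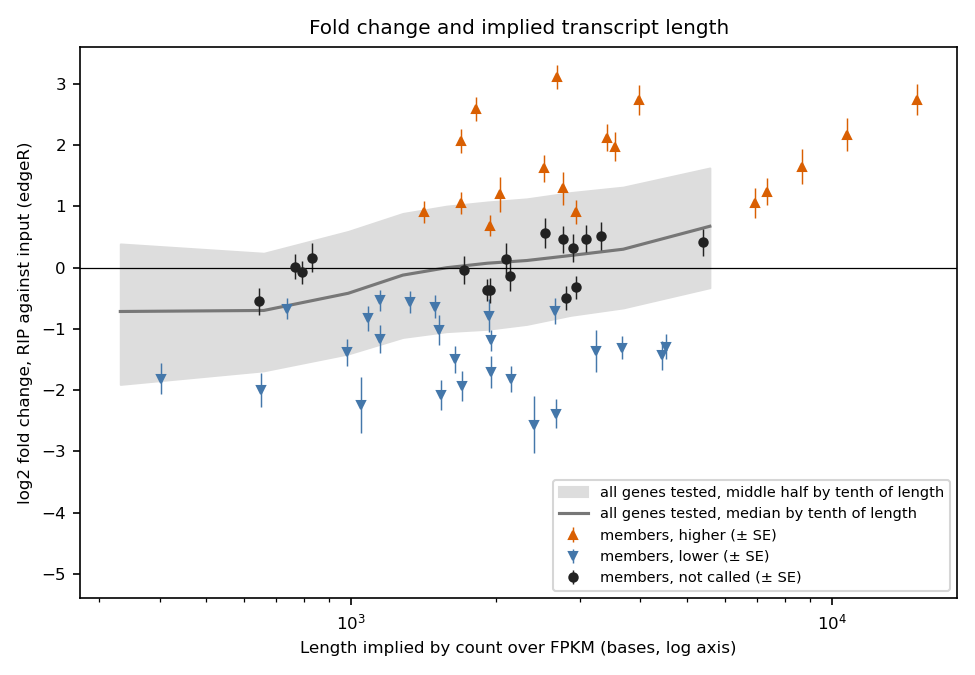
The log2 fold change of RIP against input (edgeR, ± SE) of the 60 members is plotted against the length implied by count over FPKM (log axis), over the median and interquartile range of all genes tested in 10 classes of length. The median of all genes climbed from -0.72 in the shortest class to 0.67 in the longest, and members of like length lie on both sides of it.

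The implied length of most members was itself shorter in RIP than in input. The median ratio of RIP length to input length over the members lay at 0.776, 0.856, 0.801 and 0.860 in the order of lines used above, and 45 of the 60 were shorter in 4 of 4 lines while 2 were longer in 4 of 4. An FPKM ratio is therefore higher than a count ratio for most members. The ratio of lengths over all genes is not given here. A shift of a whole library therefore cannot be told apart from one of these mRNAs. The sign of the mean FPKM ratio differed from that of the edgeR fold change in 3 members, none of them called.

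The inputs show how much of each mRNA the lines held. The median of the highest over the lowest input of a member was 2.26-fold, and 36 of the 60 differed by at least 2-fold. SW1990 had the highest input for 26 members, HCT116 for 17, DU145 for 9 and Hep3B for 8. Hep3B had the lowest for 27. The matching shares over all genes are not given here, so these counts too may hold for a whole library. Summed over the members, the inputs held 2623, 4558, 2859 and 6379 FPKM in that order of lines, of which NPM1 held the largest portion. With 1 input per line there is no test, and a value at least 2-fold from the mean of the other 3 inputs on the log2(FPKM + 1) scale is only counted.

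In Hep3B 1 member, MPHOSPH10, was at least 2-fold higher than the other lines, against 13.8% of all genes tested, and 14 (23.3%) were at least 2-fold lower, against 15.7%. The lower ones spanned the pathway, with BOP1, PES1, RRS1, NOP16, DDX10 and EBNA1BP2 beside NPM1, NHP2, RRP9, TBL3, TCOF1, NOB1, NOLC1 and DIMT1. In HCT116 4 members were higher (BOP1, NOB1, RRP9 and WDR12), against 8.56% of all genes, and 4 were lower (MPHOSPH10, NVL, UTP20 and UTP3), against 12%. In DU145 UBTF and WDR36 were higher, against 12.2%, and NPM1 was lower, against 9.15%. SW1990 had 8 higher (EBNA1BP2, NHP2, NOP56, NPM1, RRP9, TBL3, UTP14A and UTP3), against 13.3%, and FTSJ3 lower, against 9.96%. The share of members was thus above that of all genes only for Hep3B lower (23.3% against 15.7%), a count that fell from 14 to 9 without the SW1990 input, and it was level for SW1990 higher. The summed FPKM of all genes was also higher in the Hep3B input than in the other inputs (1650010 against at most 976356), and the part of this in the count was not tested.

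By level, NPM1 led every input, and NOP56, FBL, NCL and NHP2 followed in the mean of the inputs. NOP56 and FBL exchanged places between lines, while the levels of NCL stayed between 146 and 216 FPKM. UTP14A was the weakest in Hep3B, at 1.96 FPKM. The widest ranges over the lines belonged to BOP1 (6.37-fold between HCT116 and Hep3B), NHP2 (5.64-fold between SW1990 and Hep3B), MPHOSPH10 (5.39-fold between Hep3B and HCT116), TBL3 (4.91-fold between SW1990 and Hep3B) and NOB1 (4.67-fold between HCT116 and Hep3B). HEATR1 was the most even, at 16.5, 13.1, 15.1 and 15.2 FPKM. The order of the members by input level was similar in all lines, with Spearman's rho between 0.72 and 0.86 over the 60 members for the 6 pairs of inputs. For the RIP to input ratio rho lay between 0.87 and 0.93. Both are descriptions across genes, which share the length and composition of each transcript.

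**Figure D4:**
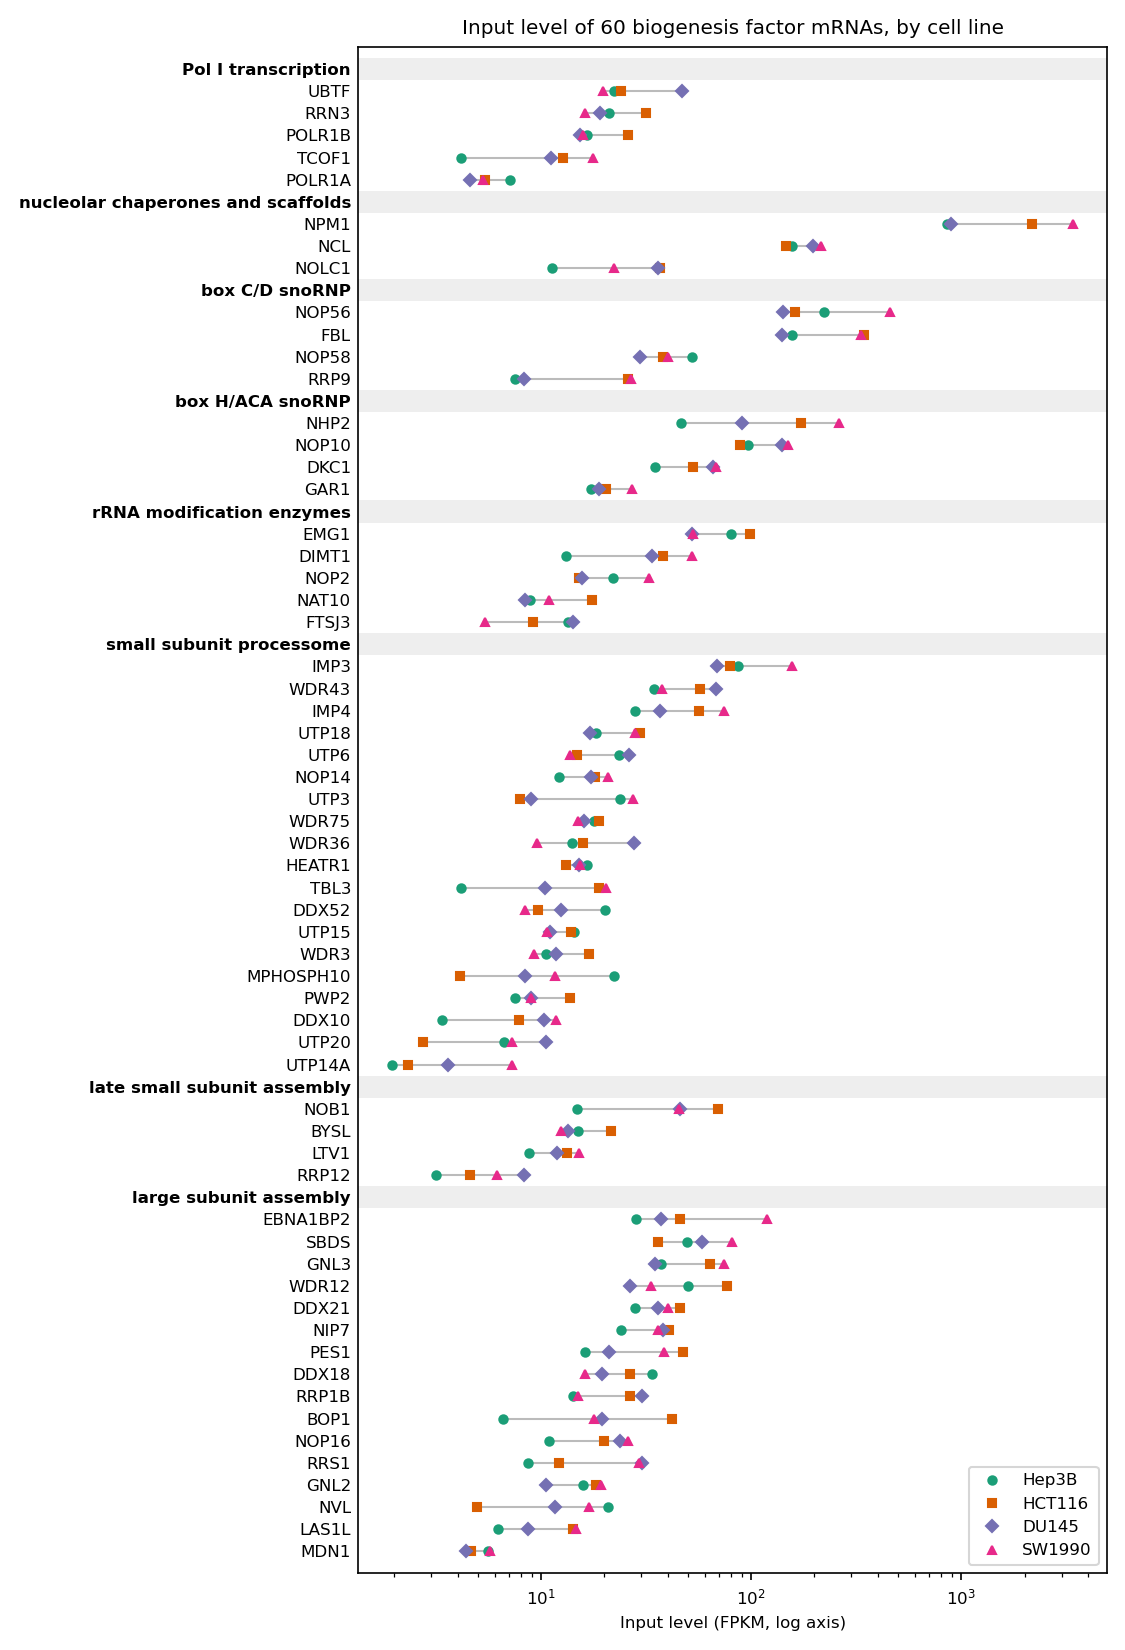
The input level of each of the 60 mRNAs (FPKM, log axis) is plotted in 4 cell lines (symbols), grouped by role and ordered by the mean level, with a grey bar from the lowest to the highest line. NPM1 lies far to the right, between 851 and 3398 FPKM, and Hep3B takes the left end of the bar for 27 members.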

How the data were processed

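Input RNA and RNA from RPS6 immunoprecipitation (Magna RIP kit, stranded total RNA libraries per the labels) were sequenced in 4 cell lines. The authors aligned the reads to hg19 with TopHat, and their processing notes name TopHat2 2.0.9 and CASAVA 1.8. The counting tool, the annotation release and the use of strand in counting are not given in the sources used here, and the paper and the record name different sequencers. The authors deposited FPKM values and estimated counts per gene, scaled by 1 factor per library within each of 2 tables. Dividing the counts of a library by their common step gave whole fragments, within 0.02, for 92.6% to 94.1% of values above 0. Tables of the authors' own fold changes, p-values and q-values were not used.

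Estimated counts were rounded and tested with edgeR 4.0.16 (quasi-likelihood, TMM, cell line as a block, mean of at least 10 counts, Benjamini-Hochberg threshold 0.05, R 4.3.3). Input and RIP are paired by cell line, the input being part of the lysate per the series record. Each library's departure from its group mean was correlated across 19921 genes. Between RIP and input of the same line r was 0.83 to 0.88, and between those of different lines it was at most -0.04, which the centring itself pushes below 0, so this describes the lines and is no evidence of a shared preparation. Each line gave 1 library a group, so p-values measure the spread between cell lines. FPKM ratios used a pseudocount of 1. The fits were tested on simulated data. Alternatives used DESeq2 1.42.0, limma 3.58.1, other minimums, scalings and pseudocounts, recovered fragments, no block, and left out each pair. Members, gene lists and tests were chosen with earlier results of these data known. Members given in full are the 5 highest and 5 lowest fold changes with 1 direction in all lines, the 5 highest inputs, the 5 widest input ranges, the 3 widest ratio ranges, and 12 chosen to cover each role. The others are named where their role group is counted, and some were described further after their values were seen. Promoter windows and motifs were added after the values were seen. They are RefSeq's (GRCh38.p14), while the loci are those of the files (hg19), given from 1. Of the loci, 40 are shared with other listed genes. A gene of the marker lists is not reported here.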

Additional observations from a re-analysis of the deposited data

Results flagged for a closer look

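Each member's 4 ratios and 4 inputs were searched for 1 cell line that stands apart from the other 3, by Dixon's test. Chance flags about 1 in 20 such groups, and 3 of 120 were found. The log2 ratio of UTP14A was -1.63 in SW1990, whereas the other lines lay between -0.45 and -0.36. The log2 ratio of NOP16 was -0.36 in HCT116 and between -0.63 and -0.61 in the other lines. The input of POLR1B, as log2(FPKM + 1), was 4.74 in HCT116 and between 4.02 and 4.13 elsewhere.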

How the results depend on the processing

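Among the fits that kept the replicate block, 17 of the 18 higher and 18 of the 25 lower members kept their call under every alternative, and no called member changed direction. NOB1 was lost on library totals without TMM, and the lower calls of WDR12, RRS1, DDX18, EBNA1BP2, NIP7, UTP14A and UTP18 were lost under limma on FPKM or without 1 pair. Leaving out a pair gave 18 to 19 higher and 20 to 25 lower members. Without the replicate block, 7 members were higher and 9 lower, and over all genes 1427 were higher and 1344 lower in place of 5282 and 4960. The cause was not tested. On TMM-scaled counts the median ratio of the members was -0.25 in Hep3B, against 0.08 by FPKM. In HCT116 it went from 0.25 to 0.08 and in DU145 from -0.03 to -0.25.

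Counts of members at least 2-fold from the other inputs were small and moved with the rules. A pseudocount of 0.1 gave 3 higher in Hep3B and 4 higher and 2 lower in DU145. TMM-scaled counts gave 2 higher in Hep3B and 2 lower in SW1990. At 1.5-fold, Hep3B had 5 higher and 23 lower, HCT116 17 higher and 7 lower, DU145 10 higher and 8 lower, and SW1990 20 higher and 4 lower. Leaving out another line in turn gave 1 to 3 higher in Hep3B (3 without DU145 or without SW1990) and 9 to 16 lower (9 without SW1990), 2 to 9 higher in HCT116 (2 without Hep3B, 9 without SW1990), 2 to 4 higher in DU145 (4 without HCT116) and 1 to 4 lower (4 without Hep3B, 2 without HCT116), and 9 to 14 higher in SW1990 (14 without HCT116) and 0 to 1 lower (0 without DU145). The lowest count of a member was 25 fragments, for GAR1 in the Hep3B RIP library, beside 244 to 269 in the other RIP libraries.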
